A study of Mus musculus with 16 samples.

Results

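Imprinted genes are described here through 9 named genes: Igf2, H19, Igf2r, Grb10, Cdkn1c, Gnas, Nnat, Peg3 and Mest. A probe set, the group of short probes that reads one transcript on an Affymetrix U74Av2 array, was counted as a member when its annotation gave a single gene symbol and that symbol was one of the 9. This gave 15 probe sets of 8 genes, out of 12488 probe sets on the array, of which 10855 name a single gene and cover 8252 genes. Gnas, Peg3 and Grb10 have 3 probe sets each, Igf2 has 2, and Nnat, Mest, Cdkn1c and Igf2r have 1 each. H19 has no probe set annotated to it alone. It shares 1 probe set with Mir675, the microRNA gene that lies inside H19 in GRCm38.p6. That probe set is described beside the members as the H19/Mir675 probe set and is never counted among them.

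The 16 arrays cover 12 of mouse embryonic stem (ES) cells, in 4 groups of 3, and 4 of liver, in 2 groups of 2. The first ES pair is a line heterozygous for a mutation of Abca1, a cholesterol exporter, and its wild-type parental line, ESVJ; both grew on irradiated embryonic fibroblast feeders, which were depleted before the cells spent about 2 days on gelatin, and RNA was taken with Trizol and RNeasy. The second ES pair is a line heterozygous for a mutation of Cdk4, a cell cycle kinase, and the wild-type line E14, its control; both are feeder-independent and their RNA was taken with RNeasy. The livers come from +/+ mice and from mice labelled Abca1 +/-, all of mixed C57BL6/J and 129/SvJ descent; the labels used here give no age. Each mutated ES genotype is represented by 1 line, and no label says whether the arrays of a group come from separate cultures, so p-values measure the spread between these arrays, which may be technical.

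In genomic imprinting a gene is expressed mainly from the copy inherited from a single parent. DNA methylation set in the egg or sperm makes the parental copies differ and is kept through later divisions. In mouse, Igf2, Peg3, Mest and Nnat are expressed mainly from the paternal copy and H19, Igf2r and Cdkn1c from the maternal copy, while Gnas and Grb10 switch parental copy with tissue or promoter. Many of these genes act on fetal growth, and expression of several falls in most tissues after birth, in the liver for Igf2 and H19 among others. The arrays measure the summed transcript of both copies, so none of the values below says which parental copy was expressed.

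The mature products of Mir675 are shown because the H19 transcript, which this probe set is annotated to, carries both; the arrays read long transcripts and give no value for a mature microRNA. Both come from the minus strand of chromosome 7 in GRCm38.p6, at chr7:142577112-142577133 for the 5p arm and chr7:142577078-142577099 for the 3p arm, and the seed, bases 2 to 8, is in capitals. The arms have different seeds.
mmu-miR-675-5p: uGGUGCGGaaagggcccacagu
mmu-miR-675-3p: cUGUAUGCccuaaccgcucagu

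Stretches of 250 bases before annotated transcript starts were read from RefSeq promoter windows of GRCm38.p6 for 4 members that differed in how they behaved among the lines: Igf2 and Peg3, whose leading probe sets were higher in E14 than in ESVJ, Nnat, which was lower, and Mest, which did not pass the test. CpG sites, the positions at which DNA methylation acts, are in capitals. Igf2 has 4 windows, with 1, 6, 10 and 22 CpG sites, and the one with the most is shown; Mest has 3, with 7, 14 and 14, and the first of the pair with 14 is shown. The windows are chr7:142658805-142659054, minus strand, for Igf2 (22 CpG sites), chr7:6730420-6730669, minus strand, for Peg3 (8 sites), chr2:157559828-157560077, plus strand, for Nnat (12 sites) and chr6:30737800-30738049, plus strand, for Mest (14 sites).
Igf2: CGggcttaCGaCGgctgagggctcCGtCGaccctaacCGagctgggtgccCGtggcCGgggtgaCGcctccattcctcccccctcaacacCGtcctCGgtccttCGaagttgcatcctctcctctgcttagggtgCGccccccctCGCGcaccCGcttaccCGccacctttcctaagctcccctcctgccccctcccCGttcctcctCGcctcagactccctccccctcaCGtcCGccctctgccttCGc
Peg3: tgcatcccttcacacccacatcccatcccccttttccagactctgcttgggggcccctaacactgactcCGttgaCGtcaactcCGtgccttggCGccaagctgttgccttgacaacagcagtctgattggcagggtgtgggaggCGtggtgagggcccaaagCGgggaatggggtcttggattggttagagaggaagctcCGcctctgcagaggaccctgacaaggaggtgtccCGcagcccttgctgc
Nnat: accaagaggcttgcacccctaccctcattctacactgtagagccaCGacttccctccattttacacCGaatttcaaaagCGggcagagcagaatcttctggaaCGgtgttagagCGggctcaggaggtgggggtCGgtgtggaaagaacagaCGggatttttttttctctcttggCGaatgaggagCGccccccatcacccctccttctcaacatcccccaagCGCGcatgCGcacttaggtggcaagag
Mest: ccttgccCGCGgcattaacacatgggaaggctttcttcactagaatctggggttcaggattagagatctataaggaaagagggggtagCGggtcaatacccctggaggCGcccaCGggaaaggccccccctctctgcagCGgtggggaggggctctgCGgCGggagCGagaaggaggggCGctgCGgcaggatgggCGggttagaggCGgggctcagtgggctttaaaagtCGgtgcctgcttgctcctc
In all, 16 such windows were found for 7 of the 9 genes, none of them H19 or Cdkn1c. They held between 1 and 40 CpG sites, with a median of 14, against a median of 6 over all 32851 windows of the same length. Some windows of Gnas and of Mest overlap, so CpG sites in them are counted more than once. TGCCGC, the motif of ZFP57, a zinc finger protein that keeps methylation at imprinted regions, was searched on both strands with no other motif. It was present in 2 of the 16 windows (12.5%), against 8.68% of all windows. Both are Mest windows that start 3 bases apart, the one above and its neighbour. The same copies of the motif are therefore counted in each. Within these windows 1 of the 7 genes carries it, and no sequence outside them was searched, so its absence elsewhere is not shown. The arrays hold no measurement of methylation or binding at these sequences.

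Signals are MAS5.0 values brought to one scale (a 2% trimmed mean of 500 on every array); they are linear, have no fixed unit and are not comparable between probe sets. Differences are on the scale of log2(signal + 32), so those of low signals are understated, and "passed" means an adjusted p under 0.05 in limma, adjusted over all probe sets of the comparison. A probe set was tested where its mean signal reached 100 over the arrays fitted. In the ES comparisons and in both comparisons of liver with ES cells, 10 of the 15 member probe sets were tested, at least 1 for each of the 8 genes. The other 5 were below the filter: an Igf2 probe set with signals of 6.16 to 57.3, 2 Gnas probe sets with 5.66 to 27.6 and 13.6 to 81.8, and 2 Grb10 probe sets with 6.76 to 200.1 and 3.80 to 36.4.

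As sums, their defining markers set the ES groups and the livers apart. The summed signal of 11 ES markers was 33983 to 64542 in the ES arrays and 640 to 848 in the livers; that of 9 hepatocyte markers, led by Alb, was 188431 to 253841 in the livers and 466 to 1045 in the ES arrays. All 11 ES markers were lower in E14 than in ESVJ, and 3 were higher in Cdk4 +/- than in E14. In +/+ liver 11 were lower than in ESVJ and 10 lower than in E14. Esrrb averaged 51.0 in E14 and 58.0 in Cdk4 +/- cells, near the 50.7 of +/+ liver. The better measured Cdk4 probe set was at 3448 to 3854 in the Cdk4 +/- arrays and at 5498 to 5827 in E14 (adjusted p = 0.00436). The other Cdk4 probe set was at 820 to 1201 against 1350 to 2068 and did not pass (adjusted p = 0.104). No Abca1 probe set passed. The brighter one read 94.0 to 123 in Abca1 +/- ES cells against 102 to 178 in ESVJ. In livers labelled Abca1 +/- it read 555 to 699 against 301 to 327 in +/+ livers, which ran against the label (adjusted p = 0.191). The other Abca1 probe set ran with the label in liver. It read 41.5 to 160.5 in livers labelled Abca1 +/- against 140 to 295 in +/+ livers, with overlap (adjusted p = 0.366). The 2 probe sets thus disagreed in liver, and the second was not tested in ES cells. Where these probes lie relative to the mutations is not given in the sources used here.

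**Figure D1:**
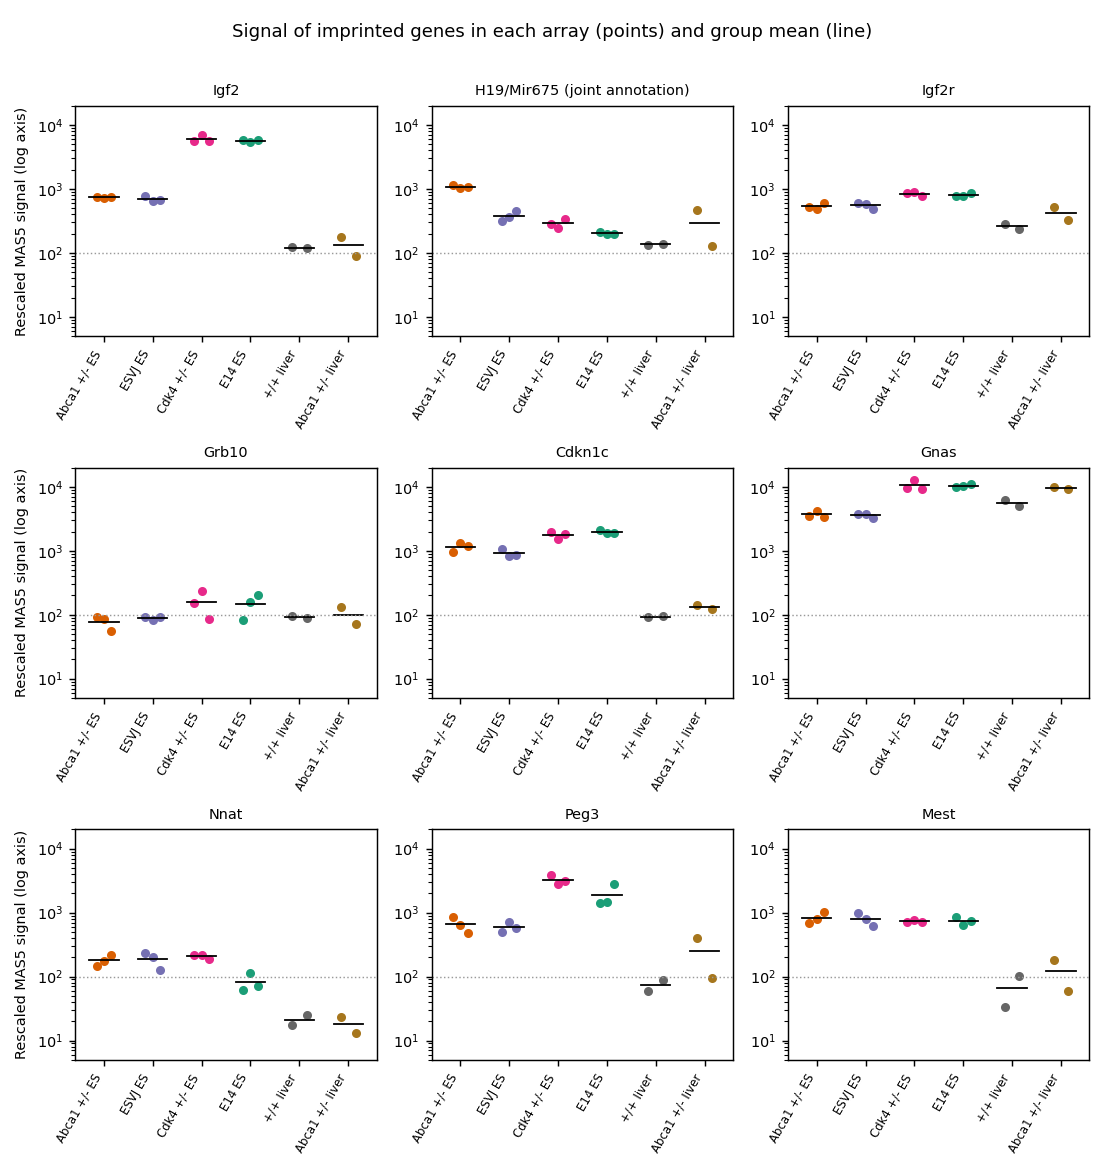
Rescaled MAS5.0 signal (log axis, no fixed unit) of the leading probe set of each gene in every array; points are arrays, lines are group means of 3 ES or 2 liver arrays, and the dotted line is the signal filter of 100. Igf2, Gnas and Peg3 sit higher in the Cdk4 +/- and E14 arrays than in the Abca1 +/- and ESVJ arrays, the H19/Mir675 probe set is highest in Abca1 +/- ES cells, and Mest is level across the ES groups.

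E14 cells, compared with ESVJ cells, had more Igf2, Peg3, Gnas, Cdkn1c and Igf2r transcript and less Nnat. Of the 10 member probe sets tested, 6 were higher in E14 (5 genes) and 1 was lower, with 3 not passing; over all 7349 probe sets, 42.6% passed, 19.8% as higher and 22.8% as lower. The median difference of the members was 0.78 on the log2 scale, against -0.09 for all probe sets. E14 and ESVJ differ in origin, in feeder culture and in the RNA method, and these cannot be told apart.

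Igf2 encodes insulin-like growth factor 2, a fetal growth factor. Its signal was 5732, 5449 and 5774 in the E14 arrays and 786, 643 and 665 in the ESVJ arrays. The groups were far apart, and each mutated line stood with its control: Cdk4 +/- cells read 5584, 6863 and 5551, and Abca1 +/- cells 753, 720 and 749. The difference of E14 from ESVJ was 2.97 on the log2 scale (SE 0.12, 95% interval 2.71 to 3.22, adjusted p = 8.13e-11), a fold of 7.81. Among the 7349 probe sets it ranked 10th by p-value and 40th by size. Within the pairs Igf2 did not pass: the difference was 0.09 (interval -0.16 to 0.34) for Abca1 +/- and 0.08 (interval -0.17 to 0.33) for Cdk4 +/-. The probe set with these values is marked in its name as one that can bind several transcripts of a gene family. The other Igf2 probe set, drawn from the same source sequence, stayed below the filter in every array, and over the 12 ES arrays their log2 signals had a Pearson r of -0.34.

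H19 is a maternally expressed non-coding RNA that neighbours Igf2 and shares its enhancers. The H19/Mir675 probe set ran the other way: it read 209, 199 and 196 in E14 and 314, 366 and 450 in ESVJ, with no overlap. E14 was lower by a log2 difference of -0.80 (SE 0.15, adjusted p = 8.14e-04). Its highest signals were 1155, 1037 and 1075, in the Abca1 +/- ES cells. All 3 of those arrays lay above every other array of the series. Against ESVJ the probe set was higher by 1.47 (SE 0.15, interval 1.14 to 1.79, adjusted p = 7.01e-04), a fold of 2.76, and it ranked 1st of 7349 both by p-value and by size in that comparison; this riser was known from earlier results of these data. Cdk4 +/- cells read 288, 242 and 335; the 3 values lay above the 3 of E14 but the difference of 0.45 (SE 0.15) did not pass (adjusted p = 0.114).

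**Figure D2:**
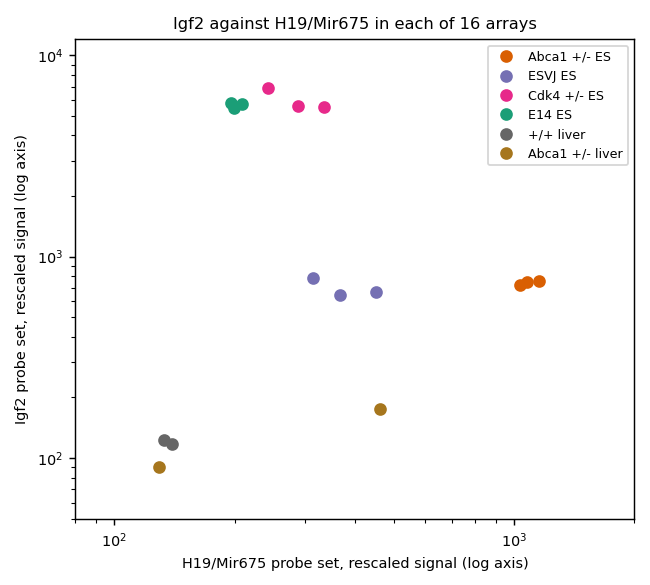
Rescaled signal of the Igf2 probe set (vertical, log axis) against that of the H19/Mir675 probe set (horizontal, log axis) in each of the 16 arrays, coloured by group. The 6 Cdk4 +/- and E14 arrays lie at Igf2 signals of 5449 to 6863, the Abca1 +/- ES arrays lie apart from ESVJ along the H19/Mir675 axis at like Igf2 signals, and 1 liver labelled Abca1 +/- stands away from the other 3 livers.

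The increase of the H19/Mir675 signal in Abca1 +/- cells was compared with that in Cdk4 +/- cells in 1 model. The Abca1 +/- effect exceeded the Cdk4 +/- effect by 1.02 on the log2 scale (SE 0.22, adjusted p = 0.0480); 0.626% of all probe sets passed this comparison. The call was lost in 11 of 12 fits that left out 1 array and kept without E14 replicate 3, with adjusted p from 0.0433 to 0.121 over those fits. The rise in Abca1 +/- cells itself passed in all 12 such fits, with differences of 1.35 to 1.59. It did not pass when the livers entered the same fit (adjusted p = 0.191). Neither Igf2 nor any of the other 9 member probe sets tested passed the comparison of effects (smallest adjusted p = 0.119, for Nnat). An unadjusted p under 0.05 was found for 4 of the 10, against 1120 of all 7349 probe sets. They belong to Nnat, Cdkn1c and, on more than 1 probe set, Peg3.

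Igf2r encodes the receptor that takes up IGF2 for degradation, and Grb10 an adaptor that restrains signalling from the insulin and IGF1 receptors. Igf2r read 775, 768 and 857 in E14 and 611, 582 and 490 in ESVJ. The arrays did not overlap, and the difference was 0.49 (SE 0.13, adjusted p = 0.00806), a fold of 1.41. Cdk4 +/- cells, at 766 to 894, overlapped E14, and Abca1 +/- cells, at 478 to 605, overlapped ESVJ; neither difference passed. Grb10 was close to the filter, at 82.0, 155 and 201 in E14 and 93.1, 81.6 and 92.4 in ESVJ. These ranges overlapped, and the difference of 0.50 (SE 0.30, adjusted p = 0.202) did not pass.

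Cdkn1c encodes p57, an inhibitor of cyclin-dependent kinases that slows the cell cycle, and lies in the imprinted cluster next to that of Igf2 and H19 on chromosome 7. It read 2132, 1873 and 1917 in E14 and 1079, 837 and 864 in ESVJ. E14 lay clear above ESVJ, with a difference of 1.07 (SE 0.15, adjusted p = 3.61e-05) and a fold of 2.10. In Abca1 +/- cells it read 953, 1322 and 1183, which overlapped ESVJ; the difference was 0.30 (interval -0.01 to 0.61, adjusted p = 0.9997). In Cdk4 +/- cells, in which a partner kinase of the cell cycle is mutated on 1 copy, it read 1968, 1541 and 1808, a difference from E14 of -0.16 (interval -0.47 to 0.15, adjusted p = 0.587).

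Gnas, which encodes the stimulatory G protein subunit that couples receptors to cyclic AMP, and Nnat, which encodes neuronatin, a small membrane protein, both lie on chromosome 2. Gnas read 9856, 10292 and 11111 in E14 and 3700, 3752 and 3249 in ESVJ. The gap gave a difference of 1.54 (SE 0.14, adjusted p = 4.18e-07), a fold of 2.91. Each mutated line again overlapped its control, with differences of 0.06 for Abca1 +/- and 0.01 for Cdk4 +/-. Of the 3 Gnas probe sets only this one was above the filter, and its name marks it as shared by several transcripts.

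Nnat was the member that differed within a pair. It read 62.6, 112 and 71.8 in E14 and 215, 215 and 188 in Cdk4 +/- cells. The groups did not overlap, and Cdk4 +/- was higher by 1.08 (SE 0.23, interval 0.60 to 1.56, adjusted p = 0.0160), a fold of 2.12. The ESVJ arrays, at 231, 201 and 129, and the Abca1 +/- arrays, at 147, 175 and 214, were near the Cdk4 +/- level, so E14 was the low group. E14 was below ESVJ by a log2 difference of -0.93 (SE 0.23, adjusted p = 0.00400). E14 enters both comparisons, and its Nnat mean of 82.1 lay below the signal filter. Nnat was tested because its mean over all ES arrays was 163, which the other ES groups raised. The name of the Nnat probe set marks it as shared by several transcripts. In the Cdk4 +/- comparison the call was lost without E14 replicate 1 (adjusted p = 0.0723), Cdk4 +/- replicate 1 (0.0676) or Cdk4 +/- replicate 3 (0.0581).

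Over the 10 member probe sets tested, Nnat was the 1 that passed between Cdk4 +/- and E14, against 4.91% of all probe sets (2.59% as higher); the median difference was 0.08, against 0.02 for all. Between Abca1 +/- and ESVJ no member probe set passed in limma, against 0.0272% of all probe sets called. None had an unadjusted p under 0.05, against 241 of all 7349 probe sets. The member differences in that pair had a median of 0.01 and ran from -0.25 to 0.30.

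Peg3 encodes a large zinc finger protein, and its 3 probe sets did not read alike. The brightest gave 1425, 1468 and 2797 in E14 and 500, 704 and 578 in ESVJ, a difference of 1.57 (SE 0.24, adjusted p = 1.33e-04). The second gave 1016, 1105 and 1634 against 229, 170 and 265, a difference of 2.33 (SE 0.26, adjusted p = 5.09e-06) and a fold of 5.03. Both placed every E14 array above every ESVJ array. The third, marked in its name as open to cross-hybridisation, gave 355, 315 and 442 against 400, 394 and 533, a difference of -0.24 (SE 0.16, adjusted p = 0.256). The first 2 had a Pearson r of 0.96 over the 12 ES arrays, and the third had an r of 0.44 and 0.37 with them.

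In Cdk4 +/- cells the brightest Peg3 probe set read 3936, 2827 and 3101, all above E14. The difference of 0.84 (SE 0.24) did not pass (adjusted p = 0.0627). E14 replicate 3, at 2797, was apart from the other 2 E14 arrays; without it the difference was 1.15 and passed (adjusted p = 0.00841). The other 2 Peg3 probe sets had differences of 0.60 (adjusted p = 0.201) and 0.44 (adjusted p = 0.139). The first 2 Peg3 probe sets varied more within groups than most: their spread stood at the percentiles 97.6 and 95.2 among 500 probe sets of like signal, where Igf2 stood at 17.4.

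**Figure D3:**
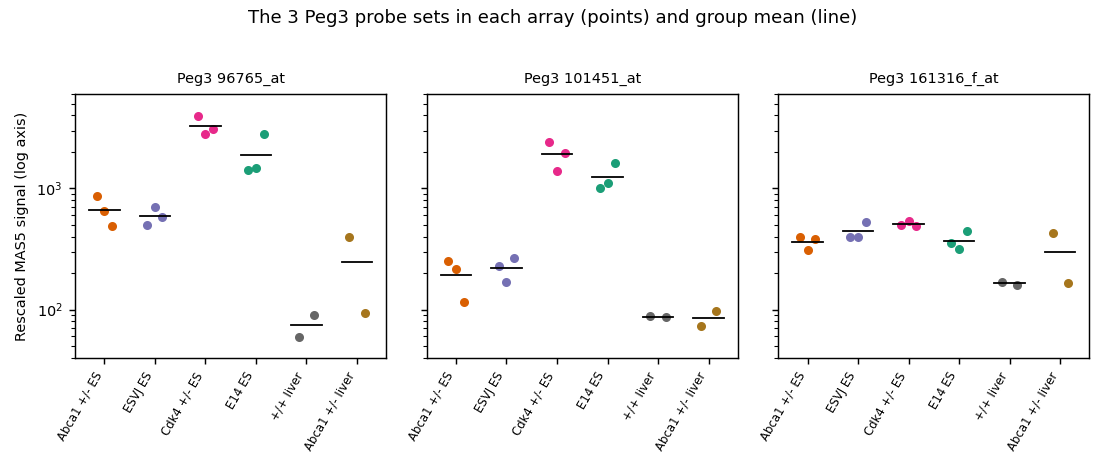
Rescaled signal (log axis) of the 3 Peg3 probe sets in every array; points are arrays and lines group means. The first 2 panels separate the Cdk4 +/- and E14 arrays from the Abca1 +/- and ESVJ arrays, and the third shows all ES arrays between 309 and 538.

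Mest encodes a membrane enzyme of the alpha/beta hydrolase fold. It was level among the ES lines: 852, 641 and 727 in E14, 995, 786 and 628 in ESVJ, 723, 765 and 719 in Cdk4 +/- and 697, 805 and 1013 in Abca1 +/- cells. All 4 ranges overlapped. The 95% intervals were -0.47 to 0.27 for E14 against ESVJ, -0.37 to 0.37 for Cdk4 +/- and -0.30 to 0.43 for Abca1 +/-, and differences within these bounds could not be told from none here.

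**Figure D4:**
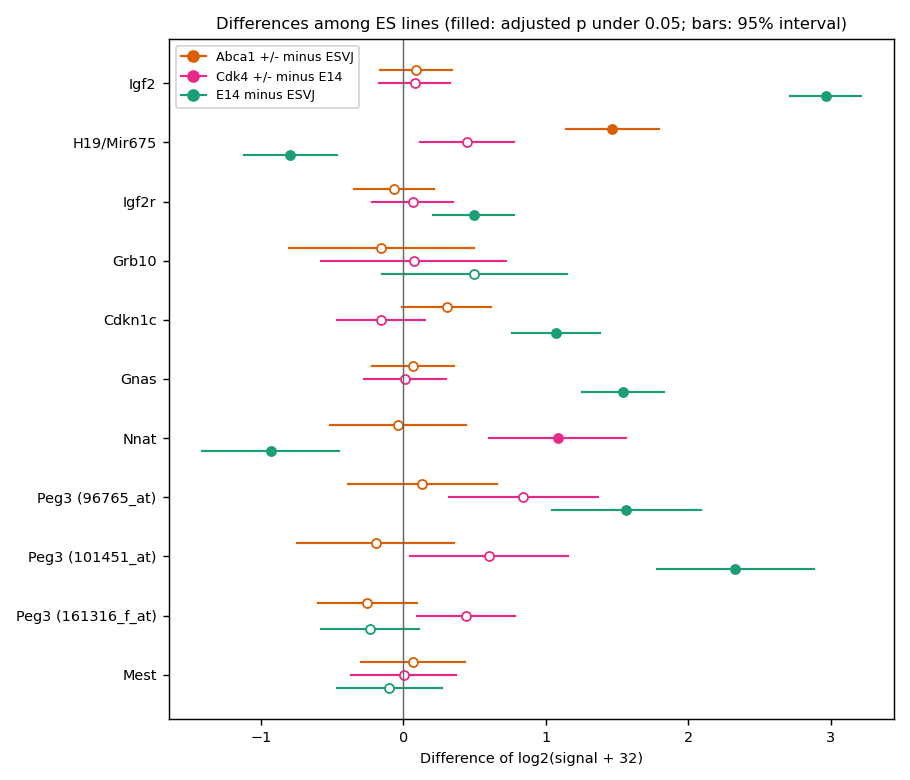
Differences on the log2(signal + 32) scale (horizontal) for each tested member probe set and the H19/Mir675 probe set (vertical) in 3 ES comparisons, with 95% intervals; filled points passed at an adjusted p under 0.05. E14 minus ESVJ runs from 2.97 for Igf2 to -0.93 for Nnat, and the filled points within the pairs are H19/Mir675 for Abca1 +/- and Nnat for Cdk4 +/-.

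Marker lists of other cell types differed between E14 and ESVJ to unlike degrees. Over all probe sets, 19.8% were higher and 22.8% lower in E14. Of a list of trophoblast genes, 9 were measured, and their summed signal was 22019 to 24817 in E14 and 21516 to 23045 in Cdk4 +/- cells, against 1820 to 2199 in ESVJ and 2558 to 2689 in Abca1 +/- cells. Krt8, Krt18 and Krt19 made up most of that sum in E14 and Cdk4 +/- cells. Of the 6 trophoblast genes tested, 5 were higher in E14 than in ESVJ and 0 lower, with a median difference of 2.72. Means in E14 and ESVJ were 9866 and 445 for Krt8, 8613 and 264 for Krt18, 2562 and 54.4 for Krt19, 1264 and 590.4 for Tfap2c, 646 and 383 for Hand1, 184 and 191 for Plac1 and 99.8 and 89.3 for Eomes. Cdx2 and Elf5 reached at most 72.1 and 22.2 in any ES array. The summed signal of 14 fibroblast genes, which would mark feeders, was 4655 to 4703 in E14, 4767 to 5899 in Cdk4 +/-, 4257 to 4405 in ESVJ and 3755 to 4231 in Abca1 +/- cells; 2 of the 8 tested were higher and 1 lower in E14 than in ESVJ, with a median of -0.06, and 0 of the 8 passed in either mutated line against its control. Of 7 endoderm markers tested, 1 was higher and 4 were lower in E14 than in ESVJ (median -0.76), and of 3 markers of fetal liver and blood 2 were higher and 0 lower (median 0.65). Of 4 neural markers tested, 1 was higher and 1 lower (median -0.01). The part of these genes, and of the higher ES marker level in ESVJ, in the imprinted gene values was not tested. In bulk RNA, fewer cells of a type and less RNA per cell cannot be told apart.

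The levels of the members across the 12 ES arrays fell into a set that moved together and others that did not. Igf2 and Gnas had a Pearson r of 0.99, Igf2 and Igf2r 0.94, and Igf2 with the brightest Peg3 probe set and with Cdkn1c 0.91 each. Igf2 and the H19/Mir675 probe set had an r of -0.75, Igf2 and Nnat -0.37 and Igf2 and Mest -0.30. The points share the 4 groups, 3 arrays each, so the levels of the groups enter every coefficient, and none carries a test. Among non-members the patterns most like Igf2 were those of Pmp22, Gsn and Krt19 (r of 0.997, 0.996 and 0.995), and those most like Gnas were Bmp4, Gsn and Igfbp4 (0.991, 0.990 and 0.990). Peg3 was most like Plin2, Sgce and Rab11fip5 (0.983, 0.981 and 0.980); Sgce is itself imprinted. Igf2r was most like Gata3, Mmp14 and Peg10 (0.967, 0.962 and 0.962), the last also imprinted, and Cdkn1c most like Sppl3, Arhgap21 and Tspan4 (0.981, 0.972 and 0.972). Nnat had Rnf14, Ckap5 and Tbx3 (0.937, 0.931 and 0.912), and the H19/Mir675 probe set Utp20, Cma2 and Phc1 (0.904, 0.870 and 0.865). The closest for Grb10 were Crat, Myo1c and Atxn10 (0.888, 0.877 and 0.855), and for Mest Map2k1, Isca1 and Pdk3 (0.817, 0.817 and 0.809).

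A wider list of 82 other imprinted genes had 46 on the array and 38 probe sets tested in ES cells. Between E14 and ESVJ 17 of the 38 were higher and 6 lower (60.5% passed, against 42.6% of all probe sets). The largest differences were those of Sfmbt2, a Polycomb-related gene (2.41), Osbpl5, a lipid transfer protein gene (1.88), Bcl2l1, an inhibitor of apoptosis (1.73), and H13, a signal peptide peptidase gene (1.63). Gab1 (-0.23) and Phlda2 (-0.31) did not pass. Between Cdk4 +/- and E14 1 was higher and 2 were lower: a Gab1 probe set (0.88), while the brighter Gab1 probe set was at 0.29 and did not pass, H13 (-0.68), and Phlda2, a growth restrainer from the Cdkn1c cluster (-0.55). These 3 of 38 stand against 4.91% of all probe sets. With 1 array left out the count ran from 0 to 4: it was 0 without Abca1 +/- ES replicate 2 or 3, E14 replicate 1 or 2, or Cdk4 +/- replicate 1 or 3, and 1 without Cdk4 +/- replicate 2. Gab1 and H13 each passed in 4 and Phlda2 in 6 of those 12 fits, and none of the 3 passed with no signal filter, no intensity trend or all 16 arrays in one fit. Under quantile normalization the split was 0 higher and 2 lower. None of the 38 passed in limma between Abca1 +/- and ESVJ.

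A list of 28 genes linked to imprints, called the imprint-keeping list here, had 18 on the array. It held DNA methyltransferases and their partners, but also Tet1, a gene of DNA demethylation, and Zfp42, which is on the ES marker list too. Of 18 probe sets tested, 9 were lower in E14 than in ESVJ and 3 were higher (66.7% passed, against 42.6% of all probe sets, 22.8% as lower and 19.8% as higher). Dnmt3a, a de novo DNA methyltransferase, read 240.2 ± 104 in E14 and 1291 ± 140.5 in ESVJ (SD, n = 3 each), a difference of -2.36 (adjusted p = 2.33e-06). Hells, a chromatin remodeller needed for DNA methylation, was lower by a difference of -1.56 and Zfp42, an ES cell zinc finger gene, by -0.84, and Dppa3, which protects imprints in the early embryo, was higher (0.87). Rbbp4 (0.08) and Ehmt2 (-0.01) did not pass. Against E14, Cdk4 +/- cells had 2 higher and 1 lower of 18, against 4.91% of all probe sets; Cbx5, a heterochromatin protein gene, gave both higher calls (0.69 on the probe set with the larger difference), and Mbd3, a subunit gene of a chromatin remodelling complex, gave -0.52. That count was 0 without E14 replicate 1 or 2 or Cdk4 +/- replicate 1 or 3, 0 with all 16 arrays in one fit and at most 4 with 1 array left out; the Cbx5 and Mbd3 probe sets with these values each passed in 8 of 12 such fits. The other Cbx5 probe set differed between the effects of Abca1 +/- and Cdk4 +/- (-1.23, adjusted p = 0.0295), a call kept in 5 of 12 fits with 1 array left out (adjusted p up to 0.0906). None of the 18 passed between Abca1 +/- and ESVJ.

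Genes of the IGF pathway were a list of 34, of which 26 were on the array. Between E14 and ESVJ 10 of 20 probe sets were higher and 1 was lower (55.0% passed, against 42.6% of all probe sets); without E14 replicate 2, 7 passed. Igfbp3 and Igfbp4, which encode IGF-binding proteins, were higher by 2.82 and 2.67. Irs2, an adaptor of the insulin and IGF1 receptors, was higher by 2.19 and the kinase gene Akt1 by 1.86. In ESVJ, Igfbp4 averaged 38.3 and Irs2 41.2, both below the signal filter, so the size of their differences depends on the pseudocount. Over all alternatives the difference ran from 1.89 to 3.40 for Igfbp4 and from 1.51 to 2.85 for Irs2. Both passed in every alternative that tested them. Ybx1 (-0.36) and Igfbp2 (0.12) did not pass. Igfbp3 was the 1 probe set of the 20 that passed between Cdk4 +/- and E14; the count was 2 without Cdk4 +/- replicate 2 or 3 and 3 without E14 replicate 3. It fell from 1917 ± 150 (SD, n = 3) in E14 to 993 ± 103 (SD, n = 3) in Cdk4 +/- cells, a difference of -0.93 (adjusted p = 0.00443), and its effect differed from that in Abca1 +/- cells by 1.10 (adjusted p = 0.0375). The call within the Cdk4 pair was kept in all 12 fits with 1 array left out, and that on the difference of effects in 3 of 12 (adjusted p up to 0.100, and 0.226 with all 16 arrays in one fit). None of the 20 passed between Abca1 +/- and ESVJ.

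Liver served as the tissue comparison. In +/+ liver 8 of the 10 tested member probe sets were lower than in ESVJ and 1 was higher, and 9 were lower than in E14. Over all 7802 probe sets 71.4% passed against ESVJ (24.4% as higher, 47.0% as lower) and 74.8% against E14 (27.6% as higher, 47.2% as lower). The members' median differences were -1.64 and -2.27, against -0.43 and -0.41 for all probe sets. Quantile normalization moved those overall medians by 0.30 and 0.29 and left 8 members lower and 0 higher against ESVJ; of all calls against ESVJ, 45.5% were then higher, where 34.2% were before. Both comparisons use the same 2 liver arrays, and tissue, strain background and RNA method differ together between the livers and the ES lines. The arrays fitted held more ES than liver arrays. Probe sets high only in ES cells therefore reached the filter more readily than those high only in liver, which bears on all these counts.

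Cdkn1c, Mest, Igf2 and the brightest Peg3 probe set were the members furthest below both lines. Cdkn1c read 91.4 and 94.8 in +/+ liver, at differences of -2.93 from ESVJ (adjusted p = 5.78e-09) and -4.00 from E14 (adjusted p = 3.15e-10). Mest read 34.0 and 101, at -3.13 and -3.03 (adjusted p = 3.85e-07 and 5.08e-07). Igf2 read 123 and 118, at -2.26 and -5.22 (adjusted p = 2.75e-08 and 1.28e-11). The brightest Peg3 probe set read 59.1 and 89.4, at -2.56 and -4.13. These 4 had liver signals around or under the filter of 100, and the pseudocount therefore limits their differences. The other Peg3 probe sets were also lower in +/+ liver, by less. The second was at -1.07 from ESVJ and -3.40 from E14, and the third at -1.26 and -1.02.

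Igf2r, at 281 and 240 in +/+ liver, was lower than both lines (-1.02 and -1.51), and so was Nnat, at 17.5 and 24.9 (-2.01 and -1.08). Gnas was the exception: at 6215 and 5045 it lay between the lines, higher than ESVJ by 0.65 (adjusted p = 0.00198) and lower than E14 (-0.89, adjusted p = 1.58e-04). Under quantile normalization the difference from ESVJ was 0.09 and did not pass (adjusted p = 0.579). Grb10, at 96.7 and 89.4, did not pass against either line. The H19/Mir675 probe set read 133 and 139, lower than ESVJ (-1.27, adjusted p = 1.24e-04), while its difference from E14 (-0.47, adjusted p = 0.0584) did not pass.

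**Figure D5:**
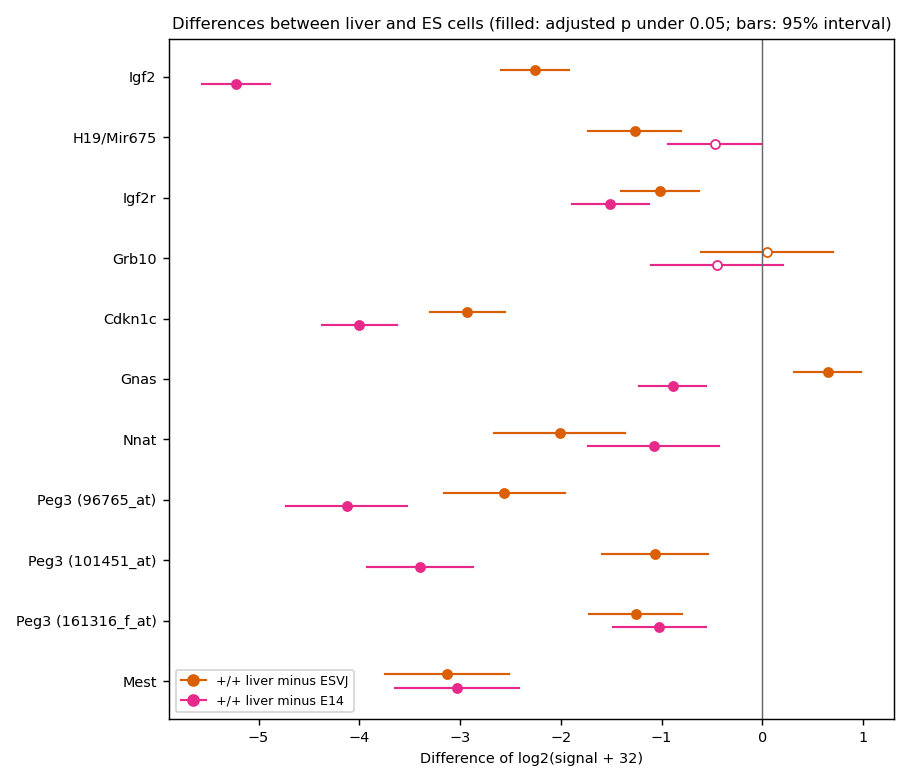
Differences on the log2(signal + 32) scale (horizontal) of +/+ liver (2 arrays) from ESVJ and from E14 (3 arrays each) for each member probe set and the H19/Mir675 probe set (vertical), with 95% intervals; filled points passed. Igf2 lies at -2.26 against ESVJ and -5.22 against E14, and Gnas lies on both sides of 0.

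The order of group means put Igf2 highest in Cdk4 +/- (5999 ± 748, SD, n = 3) and E14 (5652 ± 177), which overlapped, then Abca1 +/- ES cells (741 ± 17.8) and ESVJ (698 ± 76.9), which overlapped, then both liver groups, which overlapped. Gnas had the same upper pair, at 10563 ± 1838 and 10420 ± 637, but liver came above the feeder-grown lines. The H19/Mir675 order was Abca1 +/- ES cells (1089 ± 60.1), ESVJ (377 ± 68.6), the livers labelled Abca1 +/- (296 ± 236, n = 2), Cdk4 +/- (289 ± 46.5), E14 (202 ± 6.67) and +/+ liver (136 ± 4.35, n = 2); ESVJ and Cdk4 +/- each overlapped those livers, and the other neighbours did not overlap.

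The other members ordered the groups as follows. The brightest Peg3 probe set was highest in Cdk4 +/- (3288 ± 578), then E14 (1897 ± 780), without overlap, then Abca1 +/- ES cells (665 ± 191) and ESVJ (594 ± 103), which overlapped. Cdkn1c was highest in E14 (1974 ± 139) and Cdk4 +/- (1773 ± 216), which overlapped, then Abca1 +/- ES cells (1153 ± 187) and ESVJ (927 ± 133), which overlapped, and far below them in the livers. Igf2r was highest in Cdk4 +/- (839 ± 65.8) and E14 (799.9 ± 49.2), which overlapped, then ESVJ (561 ± 63.3) and Abca1 +/- ES cells (534 ± 65.0), which overlapped. Nnat was highest in Cdk4 +/- (206 ± 15.4), ESVJ (187 ± 52.5) and Abca1 +/- ES cells (178 ± 34.0), whose ranges overlapped, then in E14 (82.1 ± 26.1), and lowest in the livers, at 24.9 or less. Mest had its 4 ES means between 736 and 838. Grb10 had all 6 means between 77.9 and 157, with neighbours overlapping.

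Of the wider imprinted list, 11 of 41 probe sets were higher and 18 lower in +/+ liver than in ESVJ (17 and 17 under quantile normalization), and 13 were higher and 20 lower than in E14. Thus 70.7% passed against ESVJ and 80.5% against E14, near the 71.4% and 74.8% of all probe sets. Of all probe sets, 24.4% were higher and 47.0% lower than in ESVJ, and 27.6% and 47.2% than in E14. Dcn, which encodes a matrix proteoglycan, and Tfpi2, a protease inhibitor gene, were higher by 6.52 and 6.07 against ESVJ and by 5.90 and 6.44 against E14. Gab1, a signalling adaptor, was lower (-5.93 and -5.70), as were Phlda2 against ESVJ (-4.02) and Sfmbt2 against E14 (-6.07). Cd81 (0.35 and -0.30) did not pass against either line. All 18 tested probe sets of the imprint-keeping list (24 on the array) were lower in liver than in either line, against 47.0% and 47.2% of all probe sets. They were led by the ES marker Zfp42 (-6.82 and -5.98). It averaged 10.9 in +/+ liver and so reached the filter through the ES arrays. In the IGF list 12 of 26 were higher and 10 lower than in ESVJ, and 10 were higher and 15 lower than in E14. Thus 84.6% and 96.2% of that list passed, against 71.4% and 74.8% of all probe sets. Igf1, the growth factor that liver makes after birth, was higher by 8.19 and 8.44 and Ghr, the growth hormone receptor gene, by 6.02 and 5.42, where Igf2 was lower.

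In livers labelled Abca1 +/- against +/+ livers, 6 member probe sets of 5 genes were tested. In limma 0 passed, against 0.0140% of all 7160 probe sets called. An unadjusted p under 0.05 was found for 1 of the 6, against 1321 of the 7160. That 1 was Gnas, at 9874 and 9205 against 6215 and 5045 (difference 0.76, adjusted p = 0.253). The 2 livers labelled Abca1 +/- were unlike each other: replicate 1 read 400 for the brightest Peg3 probe set, 463 for H19/Mir675 and 183 for Mest, and replicate 2 read 93.6, 129 and 60.3. With replicate 2 left out, 22.8% of all probe sets passed, and among 8 members tested 2 Peg3 probe sets did, at 2.04 (adjusted p = 0.00961) and 1.23 (adjusted p = 0.0274), as did H19/Mir675 at 1.56 (adjusted p = 0.0119); the lone array is then assumed to vary like the +/+ livers. None of the 27 probe sets of the wider imprinted list passed in this comparison with both livers; 5 did without replicate 2.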

How the data were processed

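RNA of 12 ES cell arrays and 4 liver arrays was hybridised to Affymetrix U74Av2 arrays. The deposited values are a linear intensity per probe set, made by the authors with MAS5.0 at its default settings, per the labels; the deposited 2% trimmed mean was 1501 or 1502 on every array. The table used here holds no detection calls.

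Signals were rescaled to a trimmed mean of 500, 32 was added and log2 was taken. Control probe sets and those with a mean rescaled signal under 100 over the arrays of a fit were left out. The groups were fitted in R 4.3.3 with limma 3.58.1 (empirical Bayes with an intensity trend), in 7 comparisons: 4 from the 12 ES arrays (8 residual degrees of freedom), 2 from ESVJ, E14 and +/+ liver (5) and 1 from the 4 livers (2). The Benjamini-Hochberg adjustment ran over every probe set tested in a comparison, with a threshold of 0.05. The code was tested on simulated data.

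Probe sets were named from GEO's annotation of the array: 10855 have 1 gene, 396 several and 1237 none. All member probe sets are reported. From each other list, up to 4 genes that passed with the largest differences and up to 2 brightest that did not are named for each comparison, and for likeness the 3 highest Pearson coefficients. Abca1, Cdk4 and the marker genes were named outside this rule. The members and lists were chosen with earlier results of these data known. The number of arrays limits the precision: the median 95% interval of a difference among ES groups was 0.37 to each side. Alternatives were scaling, normalization, pseudocount, filter, variance trend, arrays fitted, cross-hybridising probe sets, array weights by tissue and leaving out each array. Replicate numbers follow the order of the samples and pair nothing.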

Additional observations from a re-analysis of the deposited data

Results flagged for a closer look

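The H19/Mir675 probe set differed in its response between the mutated ES lines. Its signal was 2.76-fold higher in Abca1 +/- than in ESVJ cells, and in Cdk4 +/- cells its difference from E14 was 0.45 on the log2 scale. The difference between these effects was 1.02 (SE 0.22, adjusted p = 0.0480 in limma over 7349 probe sets). All 3 Abca1 +/- arrays lay above all 3 ESVJ arrays and all 3 Cdk4 +/- arrays above all 3 E14 arrays. Over all alternatives the adjusted p of the difference ran from 0.0306 to 0.458, and 16 of them left it above the threshold. No group holds 4 or more arrays, so single arrays were not tested for standing apart.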

How the results depend on the processing

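No paired analysis was possible because the labels give no replicate numbers. Of the counts of member probe sets that passed, those for Abca1 +/- ES cells and for the difference of effects stayed at 0 under every alternative run. The count of 1 for Cdk4 +/- against E14 was 0 with a signal filter of 200, 0 with all 16 arrays in one fit and 0 without the probe sets marked for cross-hybridisation; with 1 array left out it ran from 0 to 2. Without the marked probe sets, which removes Igf2, Gnas, Nnat and 1 Peg3 probe set from the 10 tested, E14 against ESVJ gave 4 of 6, liver against ESVJ 5 and liver against E14 5. With 1 array left out the count between the livers, 0, ran from 0 to 2. With all 16 arrays in one fit, where 25.1% of all probe sets passed, it was 2 of 10: Gnas (0.76, adjusted p = 0.00755) and Igf2r (0.61, adjusted p = 0.0444).

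The Nnat call in Cdk4 +/- cells was lost with all 16 arrays in one fit (adjusted p = 0.0503), where the livers enter the estimate of the spread. H19/Mir675 passed in Cdk4 +/- cells (adjusted p = 0.0475) without the 3 ES arrays of highest BioB, a spiked hybridisation control; that alternative was chosen after seeing the data. Quantile normalization turned Igfbp2 in liver from 0.36 to -0.37 (adjusted p = 0.0178) against ESVJ and from 0.24 to -0.63 (adjusted p = 6.4e-04) against E14; it also moved the median of all probe sets. Grb10 passed against E14 in liver without E14 replicate 1 (-0.74, adjusted p = 0.0333). With 2 or 3 arrays a group, differences within the intervals given could not be seen.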
